A study of Mus musculus with 6 samples.

Results

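The 9 genes described here belong to the blood coagulation and plasminogen system and were read in fibroblasts of the pubertal mouse mammary gland. They are *F3*, *F2r*, *Thbd*, *Procr*, *Tfpi*, *Plat*, *Plau*, *Plaur* and *Serpine2*, which are 9 of the 27179 genes in the count table. They were picked by name, with the difference between CD34hi and CD34lo fibroblasts already known, so their difference between these populations is given as a description and carries no test. All 9 passed the filter on low counts, as did 15219 genes in all.

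RNA-seq libraries were made from fibroblasts of 6-week-old mice, whose strain is FVB/N in the labels and FVB/NJ in the study's methods and for which the labels name no treatment or transgene. Fibroblasts were sorted as Lin-CD24-Pdgfrα+ cells, which lack the endothelial marker CD31, the leukocyte marker CD45, the erythroid marker TER-119 and the epithelial marker CD24, and were then divided by high or low surface CD34. Each of 3 pools of 2 mice gave 1 CD34hi and 1 CD34lo library, so that same-numbered libraries came from the same mice and each population had 3 libraries. A library is thus a mean over the sorted cells of 2 animals, and fewer cells of a type and less RNA per cell cannot be told apart in it.

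Tissue factor (*F3*) starts coagulation on the surface of cells outside the vessel, and the cascade ends in thrombin. Thrombin cuts fibrinogen and also activates the receptor PAR1 (*F2r*) on cells such as fibroblasts and endothelium. Thrombomodulin (*Thbd*) and the endothelial protein C receptor (*Procr*) turn thrombin towards activation of the anticoagulant protein C, and tissue factor pathway inhibitor (*Tfpi*) blocks the tissue factor complex. The plasminogen activators tPA (*Plat*) and uPA (*Plau*) make plasmin, which dissolves fibrin and takes part in matrix turnover, with uPA held at the cell surface by its receptor (*Plaur*), and serpins such as protease nexin-1 (*Serpine2*) inhibit these proteases.

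The libraries held 28764779 to 52402410 counts, and the common biological coefficient of variation within a population was 19.7%. CPM is the count scaled to the library's normalized size. A floor of 3 counts, scaled to the total counts without normalization, corresponded to 0.0572 to 0.104 CPM, a limit that covers counting error only. *Cd34* had 2571 ± 75.3 CPM (SD, n = 3) in the CD34hi and 634 ± 158 CPM (SD, n = 3) in the CD34lo population. This RNA difference had the direction of the sort on surface CD34. Fibroblast markers summed to 28590 to 36050 CPM in CD34hi and 48390 to 54290 CPM in CD34lo libraries. The collagen genes *Col1a1* and *Col1a2* made up most of each sum. Of the 6 markers, *Pdpn* went the other way, with 186 CPM in CD34hi and 50.5 CPM in CD34lo, and the *Dcn* libraries overlapped. Markers of leukocytes, epithelium, keratinocytes, mesothelium, Schwann cells and adipocytes each summed to 39.7 CPM or less in every library. Of these, the 2 keratinocyte markers were higher in the CD34hi libraries, where they summed to 14.3 to 19.9 CPM against 3.60 to 7.12 CPM in CD34lo. Leukocyte markers summed to 6.73 to 8.33 CPM in CD34hi and 9.13 to 10.7 CPM in CD34lo. The Schwann cell markers summed to 1.10 to 1.37 CPM in CD34hi and 3.13 CPM or more in CD34lo. The epithelial, mesothelial and adipocyte sums overlapped. Log2 fold changes are CD34hi against CD34lo, so that a negative value means a higher level in CD34lo.

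Of the 9 genes, 6 (*Thbd*, *Procr*, *Tfpi*, *Plat*, *Plau* and *Serpine2*) had all 3 CD34hi libraries above all 3 CD34lo libraries, and 2 (*F3* and *F2r*) had all 3 CD34lo libraries above all 3 CD34hi libraries. *Plaur* overlapped between the populations. Among all genes tested, 24.8% were higher in every CD34hi library and 25.3% were higher in every CD34lo library, and nothing is read from the count of members because they were selected on this comparison. The members' log2 fold changes ran from -4.69 (*F2r*) to 2.49 (*Procr*) with a median of 0.60, which is likewise a description. The plot of CPM in each library shows these levels side by side.

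**Figure D1:**
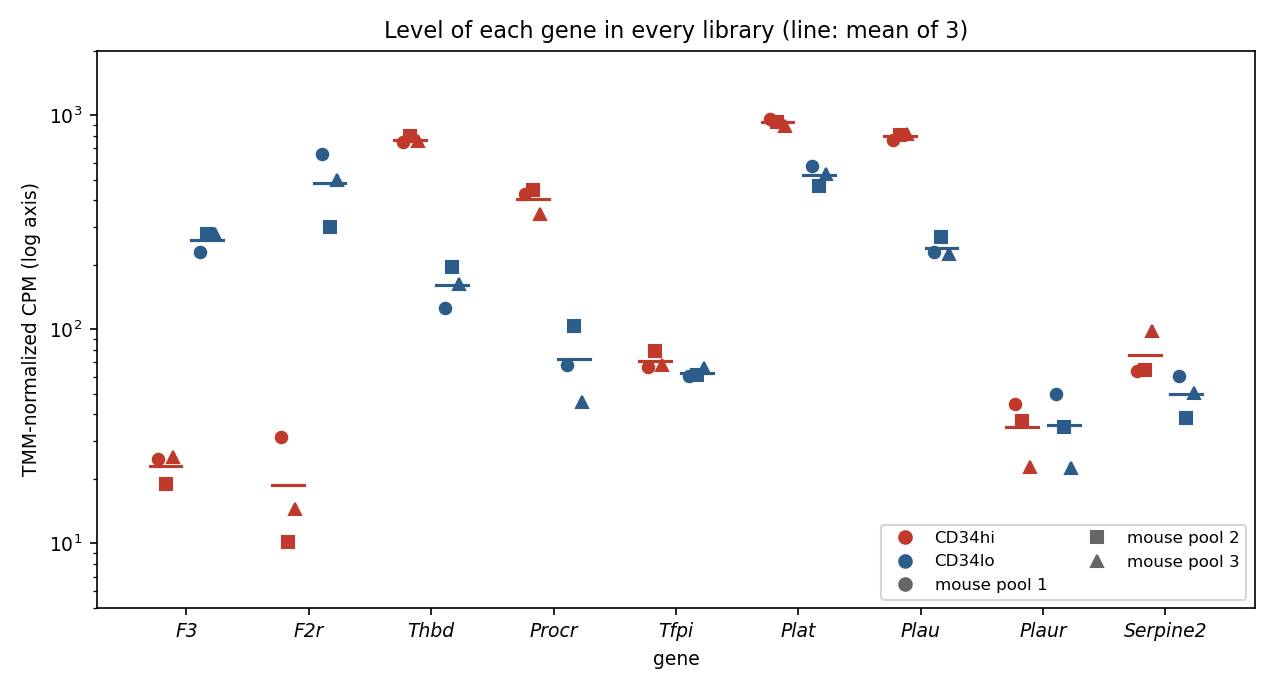
TMM-normalized CPM of the 9 genes on a log axis in each library, with red for CD34hi, blue for CD34lo, a marker shape for each of the 3 mouse pools and a line at the mean of 3 libraries. *F3* and *F2r* sit lower in CD34hi, *Thbd*, *Procr*, *Plat* and *Plau* sit higher in CD34hi in every pool, and the *Plaur* points overlap.

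The sequences just upstream of *F3*, *F2r* and *Procr* are shown because these genes differed most between the populations among the 9. They are RefSeq promoter windows (build GRCm38.p6), cut to end before the first base of any annotated transcript. RefSeq held a window for 6 of the 9 genes. The window lay at chr3:121723287-121723536 on the plus strand for *F3* (250 bases), at chr13:95618488-95618716 on the minus strand for *F2r* (229 bases) and at chr2:155750967-155751116 on the plus strand for *Procr* (150 bases). Capitals mark matches on either strand to the GC box letters GGGCGG and to the AP-1 letters TGANTCA, in which N is any base. The 2 motifs do not overlap each other in these windows.
F3: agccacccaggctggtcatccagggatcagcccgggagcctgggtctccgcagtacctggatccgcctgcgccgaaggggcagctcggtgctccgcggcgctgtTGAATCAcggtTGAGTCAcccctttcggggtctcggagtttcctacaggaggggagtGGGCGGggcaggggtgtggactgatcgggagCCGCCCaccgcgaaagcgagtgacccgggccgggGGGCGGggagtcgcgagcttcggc
F2r: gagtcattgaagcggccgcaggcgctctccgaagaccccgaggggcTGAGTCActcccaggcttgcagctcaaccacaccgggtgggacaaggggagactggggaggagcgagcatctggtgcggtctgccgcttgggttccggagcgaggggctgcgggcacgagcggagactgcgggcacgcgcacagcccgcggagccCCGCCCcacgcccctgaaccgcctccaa
Procr: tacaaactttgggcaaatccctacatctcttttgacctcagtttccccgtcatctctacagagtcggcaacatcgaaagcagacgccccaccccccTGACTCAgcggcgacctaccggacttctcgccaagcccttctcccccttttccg

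The *F3* window held 2 AP-1 matches and 3 GC boxes, and windows of its length held at least 1 of these motifs in 6.75% and 32.7% of 32851 promoters. The *F2r* window held 1 AP-1 match and 1 GC box, where the shares of promoters were 6.33% and 29.7%. The *Procr* window held 1 AP-1 match, found in 4% of promoters, and no GC box, found in 16.7%. None of the 3 windows held the TATA box letters TATAAA, which stood in 12.4% of promoters at the *F3* length. GC content was 70% for *F3* and 70.7% for *F2r*, against medians of 52.4% and 52% over all promoters, and 56% for *Procr*, against 50.7%. These letter matches are descriptions and were not tested against the difference in RNA.

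Tissue factor RNA was lower in CD34hi fibroblasts than in CD34lo fibroblasts. Its level per kilobase stood at percentile 71 of all genes tested in CD34hi and at percentile 97.4 in CD34lo. *F3* (gene 14066, chr3:121723537-121735052, plus strand) had 24.7, 18.9 and 25.3 CPM in CD34hi pools 1 to 3 and 230.0, 279 and 278 CPM in CD34lo pools 1 to 3. Every CD34lo library stood far above every CD34hi library, and each population was tight. The means were 23.0 ± 3.51 CPM (SD, n = 3) and 262 ± 28.2 CPM (SD, n = 3), a log2 fold change of -3.51 (standard error 0.16), which is 11.4-fold higher in CD34lo. Within pools 1, 2 and 3 the log2 ratio was -3.22, -3.88 and -3.46.

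The thrombin receptor PAR1 showed the widest gap of the 9. *F2r* (gene 14062, chr13:95601789-95618433, minus strand) had 31.5, 10.2 and 14.5 CPM in CD34hi and 656, 300.4 and 498 CPM in CD34lo pools 1 to 3. The lowest CD34lo library was well above the highest CD34hi library, and pool 1 was the highest and pool 2 the lowest in both populations. The means were 18.7 ± 11.2 and 485 ± 178 CPM (SD, n = 3 each), a log2 fold change of -4.69 (standard error 0.48) or 25.9-fold. The pool ratios on the log2 scale were -4.38, -4.88 and -5.11. Its coefficient of variation among libraries was 60.2% in CD34hi and 36.7% in CD34lo, so that this gene varied more between pools than *F3* did.

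**Figure D2:**
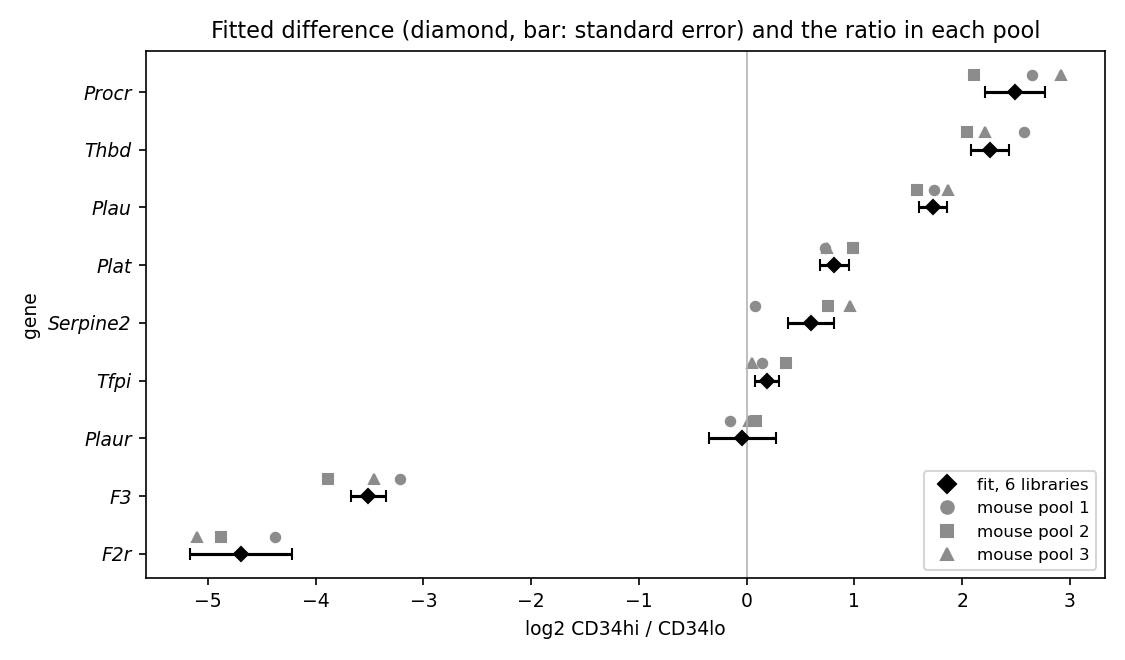
Log2 fold change of CD34hi against CD34lo for each gene, with the fitted value as a diamond, its standard error as a bar and the log2 ratio of each of the 3 mouse pools as grey points. *F2r* at -4.69 and *F3* at -3.51 lie to the left of 0, *Procr* at 2.49 and *Thbd* at 2.26 lie farthest to the right, and *Plaur* is at -0.04.

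Across the 6 libraries the genes with log2 CPM most like *F2r* were *Dusp7*, which encodes a phosphatase of MAP kinases, *Tnc*, which encodes tenascin-C, *Ccn4*, a matricellular protein gene, *Begain* and the collagen gene *Col27a1*. Their Pearson's r with *F2r* was 1.00, 0.999, 0.999, 0.998 and 0.998 in that order. These libraries share the difference between populations, and 529 of the 8872 genes compared had an r above 0.95, so a high r was common. *Tnc* had 8.31 CPM in CD34hi and 160 CPM in CD34lo, and *Dusp7* differed much less, with 16.0 and 27.0 CPM. Among the other members, *F3* had an r of 0.97 with *F2r*, *Thbd* and *Plau* an r of -0.98, and *Plaur* an r of 0.11.

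Markers of pericytes and smooth muscle cells differed in direction. In the edgeR quasi-likelihood fit (Benjamini-Hochberg threshold 0.05), 5 of 7 such markers were higher in CD34lo, where 18.7% of all genes were. Only 1 (*Kcnj8*) was higher in CD34hi, where 16.9% of all genes were. *Abcc9*, the most abundant of the 7, had 123 CPM in CD34hi and 106 CPM in CD34lo and did not pass. The marker sums overlapped, at 140 to 195 CPM in CD34hi and 192 to 277 CPM in CD34lo libraries. *Abcc9* alone gave 122, 100 and 146 CPM in CD34hi pools 1 to 3, which is most of each CD34hi sum. It gave 63.5, 151 and 104 CPM in CD34lo pools 1 to 3. The largest differences among the 5 were those of the smooth muscle gene *Myh11*, with 2.37 CPM in CD34hi and 34.7 CPM in CD34lo, and of *Notch3*, with 4.44 and 43.1 CPM. Platelet markers summed to 14.3 to 18.6 CPM in CD34hi and 24.9 to 34.0 CPM in CD34lo, almost entirely from *Itga2b*, while the defining genes *Pf4* and *Ppbp* had 1 and 5 counts in all libraries together. The part of such cells in the *F2r* and *F3* levels was not tested.

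The receptors that act on protein C were higher in the population where tissue factor was lower. Thrombomodulin binds thrombin and changes its substrate to protein C. *Thbd* (gene 21824, chr2:148404471-148408188, minus strand) had 748, 800.4 and 758 CPM in CD34hi and 126, 194 and 163 CPM in CD34lo pools 1 to 3. The populations stood well apart, with means of 769 ± 27.7 and 161 ± 34.6 CPM (SD, n = 3 each), a log2 fold change of 2.26 (standard error 0.18) or 4.77-fold higher in CD34hi. The pool ratios were 2.58, 2.04 and 2.21 on the log2 scale.

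*Procr*, which presents protein C to the thrombin-thrombomodulin complex, followed *Thbd*. *Procr* (gene 19124, chr2:155751217-155755478, plus strand) had 427, 447 and 347 CPM in CD34hi and 68.2, 104 and 45.8 CPM in CD34lo pools 1 to 3. No CD34lo library came near the lowest CD34hi library. The means were 407 ± 53.2 and 72.5 ± 29.1 CPM (SD, n = 3 each), a log2 fold change of 2.49 (standard error 0.28), with pool ratios of 2.65, 2.11 and 2.92. Pool 2 had the highest level of both genes in both populations.

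*Tfpi*, the direct inhibitor of the tissue factor complex, was nearly level. *Tfpi* (gene 21788, chr2:84432860-84476775, minus strand) had 67.0, 79.0 and 68.1 CPM in CD34hi and 60.7, 61.4 and 66.0 CPM in CD34lo pools 1 to 3. The lowest CD34hi library lay only just above the highest CD34lo library, and the log2 fold change was 0.19 (standard error 0.11). The gene has several transcripts, which gene counts do not separate.

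Because *Thbd* and *Procr* are known from endothelium, endothelial markers were read beside them. Their sum was 540.2 to 705 CPM in CD34hi and 69.9 to 113 CPM in CD34lo, but *Tek* (543 and 35.1 CPM) and *Kdr* (53.1 and 6.06 CPM) made up most of the CD34hi sum. The other 8 markers, a set named after their values were seen, summed to 12.9 to 33.9 CPM in CD34hi and 43.4 to 65.3 CPM in CD34lo. The defining genes *Pecam1* (6.66 and 14.7 CPM) and *Cdh5* (3.03 and 7.40 CPM) were lower in every CD34hi library than in any CD34lo library, while *Tek* and *Kdr* were higher in every CD34hi library. The part of endothelial cells in the *Thbd* and *Procr* levels was not tested. Of the 10 markers, 2 were higher in CD34hi and 3 were higher in CD34lo in the edgeR quasi-likelihood fit (Benjamini-Hochberg threshold 0.05). The shares of all genes tested were 16.9% and 18.7%, and these counts are a description.

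Both plasminogen activators were higher in CD34hi fibroblasts. *Plat* (gene 18791), which encodes tPA, had 963, 925 and 890.3 CPM in CD34hi and 581, 468 and 532 CPM in CD34lo pools 1 to 3, so that all CD34hi libraries were above all CD34lo libraries by a modest step. The means were 926 ± 36.6 and 527 ± 56.8 CPM (SD, n = 3 each), a log2 fold change of 0.81 (standard error 0.13) or 1.76-fold. *Plau* (gene 18792, chr14:20836662-20843388, plus strand), which encodes uPA, had 766, 806 and 820.1 CPM in CD34hi and 230, 269 and 224 CPM in CD34lo. Its groups were also separate and more so than those of *Plat*. The means were 797 ± 28.2 and 241 ± 24.3 CPM (SD, n = 3 each), a log2 fold change of 1.73 (standard error 0.13) or 3.31-fold, and the pool ratios ran from 1.59 to 1.87.

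The receptor of uPA did not follow its ligand. *Plaur* (gene 18793, chr7:24462500-24475873, plus strand) had 44.6, 37.2 and 22.8 CPM in CD34hi and 49.8, 35.1 and 22.5 CPM in CD34lo pools 1 to 3. The populations overlapped throughout, and in both of them pool 1 was highest and pool 3 lowest. The log2 fold change was -0.04 (standard error 0.31) without a pool term and -0.019 (standard error 0.115) with the mouse pool as a block. The pool ratios were -0.16, 0.09 and 0.02, so that the sign of this difference rested on single libraries. Leaving out pool 1 gave 0.09, leaving out CD34hi replicate 3 gave 0.20 and leaving out CD34lo replicate 1 gave 0.30.

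The serpin *Serpine2*, which encodes the thrombin inhibitor protease nexin-1, was somewhat higher in CD34hi. *Serpine2* (gene 20720, chr1:79794321-79858665, minus strand) had 63.9, 64.8 and 98.1 CPM in CD34hi and 60.5, 38.5 and 50.6 CPM in CD34lo pools 1 to 3. The highest CD34lo library lay just under the lowest CD34hi library, both of pool 1. The log2 fold change was 0.60 (standard error 0.21), and the pool ratios were 0.08, 0.75 and 0.96. The gene overlaps a gene on the opposite strand that drew 33 counts against 15576 for *Serpine2*, and the strand setting of the counting is not given in the sources used here.

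Levels per kilobase of gene model allow the 9 genes to be ordered. In CD34hi libraries the mean CPM per kilobase was 366 for *Plat*, 340.4 for *Plau*, 271 for *Procr* and 207 for *Thbd*, then 36.8 for *Serpine2*, 25.0 for *Plaur*, 18.9 for *Tfpi*, 12.2 for *F3* and 5.67 for *F2r*. The libraries' ranges overlapped for *Serpine2* with *Plaur* and for *Plaur* with *Tfpi*, so those neighbours are not ordered beyond their spread. In CD34lo libraries the order was *Plat* (208), *F2r* (147), *F3* (140), *Plau* (103), *Procr* (48.2), *Thbd* (43.3), *Plaur* (25.6), *Serpine2* (24.3) and *Tfpi* (16.6). There the range of a gene was clear of the next only between *F3* and *Plau*, between *Plau* and *Procr* and between *Serpine2* and *Tfpi*.

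**Figure D3:**
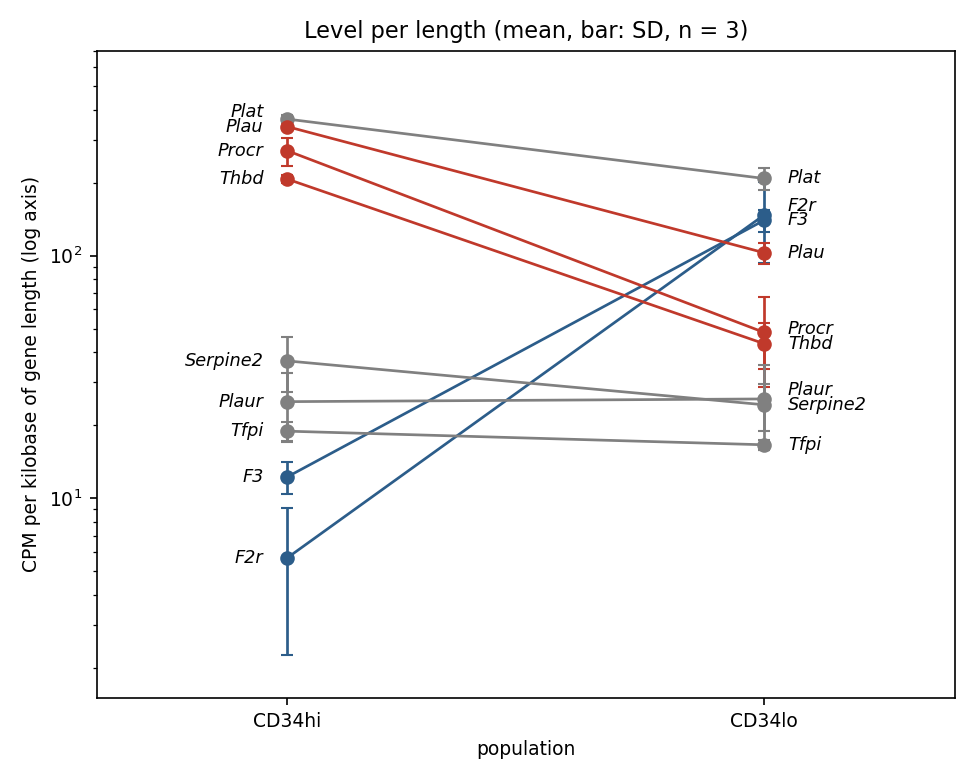
Mean CPM per kilobase (log axis, bars: SD, n = 3) of the 9 genes in CD34hi and in CD34lo fibroblasts, with a line joining the 2 populations for each gene, blue for *F3* and *F2r*, red for *Thbd*, *Procr* and *Plau* and grey for the others. The blue lines rise from the lowest levels in CD34hi to levels near 140 in CD34lo, the red lines descend, and those of *Plaur* and *Tfpi* are nearly level.

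Ratios of functional partners within a library show the shift more compactly. These ratios per kilobase were chosen after the values were seen and carry no test. *Thbd* to *F3* was 15.3, 21.3 and 15.1 in CD34hi and 0.275, 0.351 and 0.296 in CD34lo pools 1 to 3. Thrombomodulin RNA thus exceeded tissue factor RNA in each CD34hi library and was below it in each CD34lo library. *Procr* to *Thbd* overlapped between the populations, at 1.41, 1.38 and 1.13 in CD34hi and 1.34, 1.32 and 0.693 in CD34lo. *Plau* to *Plaur* was 10.2, 12.9 and 21.4 in CD34hi and 2.75, 4.57 and 5.93 in CD34lo. *Plat* to *Plau* was 1.16, 1.06 and 1.00 in CD34hi and 1.61 to 2.34 in CD34lo, and the populations did not overlap.

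**Figure D4:**
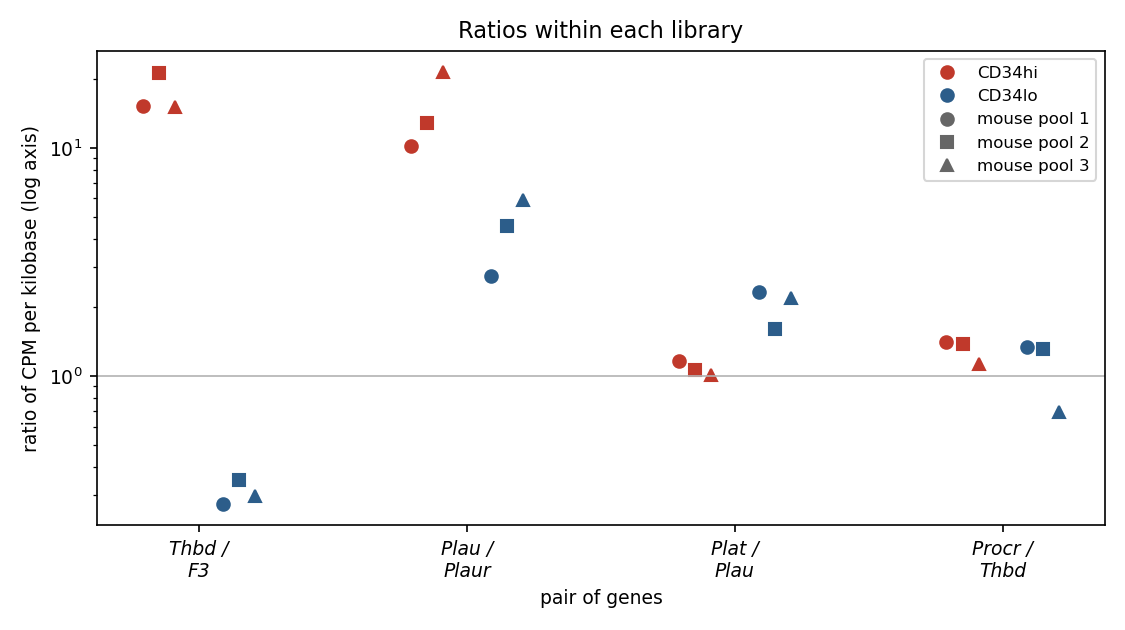
Ratios of CPM per kilobase between partner genes in each library on a log axis, with red for CD34hi, blue for CD34lo, a marker shape for each mouse pool and a line at a ratio of 1. *Thbd* to *F3* is 15.1 or higher in CD34hi and 0.351 or lower in CD34lo, and *Plat* to *Plau* is 1.00 to 1.16 in CD34hi and 1.61 to 2.34 in CD34lo.

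The other coagulation and plasminogen genes were taken from a list of 44 genes that was written with earlier results of these data known. Of these, 26 passed the filter and the other 18 had 57 counts or fewer in all 6 libraries together, with *F9*, *Fga*, *Hrg* and *Cpb2* at 0 counts. The genes of thrombin and plasminogen themselves were among the latter, *F2* with 21 and *Plg* with 22 counts. In the edgeR quasi-likelihood fit, adjusted by Benjamini-Hochberg across all genes (35.6% of which passed in either direction), 4 of the 26 were higher in CD34hi (15.4%, against 16.9% of all genes) and 5 were higher in CD34lo (19.2%, against 18.7%). These shares were near the background and are no result about the list. A replicate block for the mouse pool gave 8 that were higher in CD34lo, the added genes being *F2rl1*, *Vwf* and *Tfpi2*. The count higher in CD34hi was 2 without pool 1 or without CD34hi replicate 2, and that higher in CD34lo was 3 without pool 2 or without pool 3.

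The coagulation factor with a clear difference was *F5*, the cofactor of the complex that makes thrombin. *F5* had 1.97, 1.96 and 2.05 CPM in CD34hi and 36.9, 36.1 and 21.6 CPM in CD34lo pools 1 to 3, which is -3.98 on the log2 scale with a standard error of 0.23 (edgeR, adjusted p = 6.9e-06). *Vwf*, the carrier of factor VIII, had 6.32 and 14.5 CPM (log2 fold change -1.20, adjusted p = 0.0713 in edgeR's quasi-likelihood test, 0.00545 with the replicate block). It is also among the endothelial markers read above, and the part of endothelial cells in its level was not tested. Of the other protease-activated receptors, *F2rl1* (PAR2) had 0.308 CPM in CD34hi and 0.903 CPM in CD34lo, *F2rl3* (PAR4) had 0.362 and 0.844 CPM, and *F2rl2* (PAR3) had 1 count in all. *F2r* was the gene of this family with a mean above 1 CPM in either population. *Ggcx*, which encodes the vitamin K-dependent carboxylase of clotting factors, and *Pros1*, which encodes the protein C cofactor protein S, were slightly higher in CD34lo, with log2 fold changes of -0.35 and -0.40 and adjusted p = 0.0287 and 0.0354 (edgeR). These calls were lost in 8 and 9 of 15 alternatives, among them each pool left out.

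Among genes of plasminogen-binding and related proteins, the clearance receptor *Lrp1* included, 3 of 6 tested were higher in CD34hi in edgeR's quasi-likelihood test. None was higher in CD34lo. Of all genes, 16.9% were higher in CD34hi and 18.7% in CD34lo. With 6 genes from a list whose shares were near the background, this count is a description. *Clec3b*, which encodes the plasminogen-kringle-binding tetranectin, had 3339, 3118 and 2934 CPM in CD34hi and 684, 1154 and 865 CPM in CD34lo, which is 1.80 on the log2 scale with a standard error of 0.21 (edgeR, adjusted p = 0.000228). *Anxa2* and *S100a10*, which encode the annexin A2 heterotetramer, had smaller differences of 0.61 and 0.55 on the log2 scale, with adjusted p = 0.0232 and 0.0151. The *Anxa2* call was lost without pool 1, without pool 2 and without 4 single libraries, and the *S100a10* call without pool 1 and without CD34hi replicate 2. The clearance receptor *Lrp1* had 2421 ± 351 and 2956 ± 282 CPM (SD, n = 3 each), a difference that did not pass (adjusted p = 0.214 from edgeR).

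Of the fibrinolysis inhibitors, *Serpini1*, the neuroserpin gene, had 0.667 CPM in CD34hi and 9.99 CPM in CD34lo, with a difference of -3.88 on the log2 scale (edgeR, Benjamini-Hochberg adjusted p = 2.9e-05). *Serpinb2*, which encodes PAI-2, went the other way, with 5.01, 8.69 and 4.21 CPM in CD34hi. It had 9, 1 and 0 counts in CD34lo, at or near the floor, so that its fitted fold depends on the prior count. The keratinocyte marker *Krtdap* had a similar level and direction, with 9.93, 10.7 and 5.09 CPM in CD34hi and 0.240, 0.0360 and 0.0643 CPM in CD34lo, and the part of such cells in the *Serpinb2* level was not tested.

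**Figure D5:**
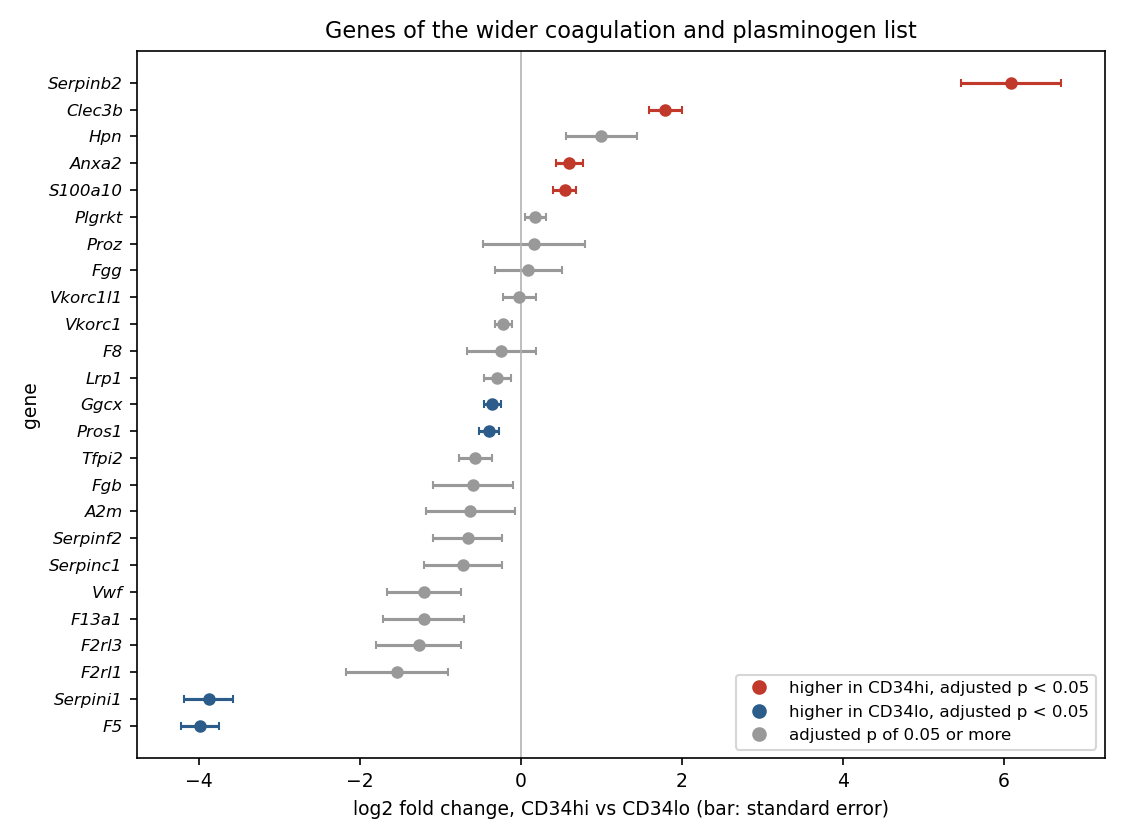
Log2 fold change of CD34hi against CD34lo with its standard error as a bar for coagulation and plasminogen genes outside the 9 that passed the filter, ordered by value, with red and blue for an adjusted p-value under 0.05 and grey for the rest. *Serpinb2*, whose fitted value depends on the prior count, and *Clec3b* at 1.80 lie farthest to the right, and *F5* at -3.98 and *Serpini1* at -3.88 farthest to the left.

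PAR1 signals through the G proteins G12/13, Gq/11 and Gi, whose genes were counted together with their effectors, arrestins and kinases. All 20 listed genes passed the filter, 6 (30%, against 16.9% of all genes) were higher in CD34hi and 5 (25%, against 18.7%) were higher in CD34lo in edgeR's quasi-likelihood test. Of the receptor kinases, *Grk3* had 2.00 CPM in CD34hi and 16.5 CPM in CD34lo (log2 fold change -3.05, adjusted p = 4.1e-05) and *Grk5* was 0.70 higher in CD34hi on the log2 scale. *Gna12*, which encodes an alpha subunit of the G12/13 class, had 33.2 and 113 CPM (log2 fold change -1.77, adjusted p = 0.000248), and *Gnai1* differed by -1.55. The effectors *Rock2* (log2 fold change 1.31, adjusted p = 7.6e-05) and *Rhoa* (0.69) and the phospholipase genes *Plcb4* (0.96), *Plcb1* (0.52) and *Plcb3* (0.51) were higher in CD34hi. The guanine nucleotide exchange factor genes *Arhgef11* (-0.44) and *Arhgef1* (-0.36) were slightly higher in CD34lo. The *Plcb1* call was lost in 10 of 15 alternatives, which were upper-quartile normalization and each pool and each library left out, with adjusted p up to 0.306 (edgeR). The *Plcb3* call was lost without pool 2, pool 3 or CD34hi replicate 2, the *Rhoa* call without pool 1 or pool 2, and the *Arhgef11* call without pool 1, pool 2, CD34hi replicate 1 or CD34hi replicate 2. *Gna13*, *Gnaq*, *Gna11* and the arrestin genes did not pass. The count higher in CD34hi was 3 without pool 2, and that higher in CD34lo was 3 without pool 1, pool 2, CD34hi replicate 1 or CD34hi replicate 2.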

How the data were processed

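RNA of 6 sorted fibroblast libraries was read by bulk RNA-seq. The authors aligned the reads to GRCm38/mm10 and deposited whole-number counts per gene made with Rsubread 2.2.6 (submitters' processing notes), with no normalization. The annotation, strand setting and handling of multi-mapping reads are not given in the sources used here.

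Symbols came from the RefSeq gene table by gene identifier (25275 of 27179 genes). In R 4.3.3, edgeR 4.0.16 applied filterByExpr by population (15219 genes kept), TMM normalization and the quasi-likelihood test of CD34hi against CD34lo without a pool term, adjusted by Benjamini-Hochberg (threshold 0.05). The study used voom. CPM use TMM-scaled library sizes, and log2 CPM a prior count of 2. Replicate libraries differed by more than sampling noise (chi-square per degree of freedom at least 23.1). Same-numbered libraries share mice, and their deviations correlated at 0.279, 0.0844 and 0.243. An exact permutation test of 3 against 3 cannot go below 0.1.

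The members and lists were chosen with earlier results of these data known. Genes named are the members, up to 10 genes with the largest change per list past the threshold at a mean of at least 1 CPM, coagulation genes with at least 100 CPM in either population, *Cd34*, and the 5 genes most like *F2r* at a mean log2 CPM of at least 3. *F2rl1*, *F2rl2*, *F2rl3*, *Vwf*, *Tfpi2*, *F2*, *Plg*, *Arhgef1* and genes named as not passing or at 0 counts were named outside this rule, after their values were seen. Alternatives were limma 3.58.1 voom, DESeq2 1.42.0, RLE and upper-quartile factors, no filter, the pool block, and each pool or library left out. Results for some genes are not reported by name here, though they enter the counts.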

Additional observations from a re-analysis of the deposited data

How the results depend on the processing

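The fold changes of the members and of the genes named by rule, and the counts of genes, were recomputed under 15 alternatives. Ratios, correlations with *F2r*, marker sums and genes named outside the rule were not. The log2 fold changes of the members kept their direction in all of them except for *Plaur*, which was 0.09 without replicate 1 (pool 1), 0.20 without CD34hi replicate 3 and 0.30 without CD34lo replicate 1, and ranged from -0.28 to 0.30. *F2r* ranged from -5.27 (without CD34hi replicate 1) to -4.39, *F3* from -3.63 to -3.34, *Thbd* from 2.13 to 2.41, *Procr* from 2.25 to 2.83 and *Serpine2* from 0.37 to 0.90. The number of genes differing was 5411, and 3468 to 5236 with a pool or library left out, lowest without pool 1. Those higher in CD34hi numbered 2570 (1608 to 2456 with a pool or library left out) and those higher in CD34lo 2841 (1860 to 2780). With the replicate block, 6161 genes differed. The block, which follows from the shared mice, raised the coagulation genes higher in CD34lo from 5 to 8 and moved no other count by over 1.5 times. With a pool or library left out, the coagulation genes higher in CD34hi numbered 2 to 5 and in CD34lo 3 to 6, the PAR1-coupled genes 3 to 5 and 3 to 6, and the serpin genes higher in CD34lo 2 to 8. Of the tested named genes' values, 443 kept their side of the threshold and 52 did not, with the same direction throughout. The causes were not tested. Depth limits genes at a few counts, such as *Serpinb2* in CD34lo.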

Other observations

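The serpin family beyond *Serpine2* was read as a whole, since it holds inhibitors of both cascades together with proteins of other functions. Of 63 such genes, 27 passed the filter, 6 were higher in CD34hi (22.2%, against 16.9% of all genes) and 6 were higher in CD34lo (22.2%, against 18.7%) in the edgeR quasi-likelihood fit (Benjamini-Hochberg), and 14 had 0 counts in every library. Some of them, such as *Serpinb2* and *Serpini1*, are also in the coagulation list. Among intracellular clade B serpins, *Serpinb6a* had 806 CPM in CD34hi and 313 CPM in CD34lo (log2 fold change 1.36, adjusted p = 0.000368), and *Serpinb1a* was 0.90 higher on the log2 scale (adjusted p = 0.00337). *Serpina3c* had 36.1 and 3.84 CPM (log2 fold change 3.26, adjusted p = 0.000155), but it belongs to a multigene family whose reads may be shared between copies. In the other direction, *Serpinh1*, the collagen chaperone gene, had 1568 and 2347 CPM (log2 fold change -0.58, adjusted p = 0.0121 from edgeR), a call lost without pool 1, without pool 2 and without CD34hi replicate 2. The count higher in CD34lo was 3 without pool 1 or without CD34hi replicate 2, and 2 without pool 2.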
